A study of Mus musculus with 3 samples.

Results

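Fibroblasts that carried transcripts of Col15a1 but few of Pi16, Inhba, Col2a1 and Acta2 were examined in ectopic tissue masses of CD1 mice, an outbred strain, at day 5 after implantation. The cells were chosen by their own transcripts. Each had at least 500 UMIs, at least 300 genes and no more than 15% mitochondrial UMIs. Col1a1, Col1a2 and Col3a1 together made up at least 1% of its UMIs, which is called collagen-positive here. It had at least 2 Col15a1 UMIs, under 3 Pi16 UMIs, under 3 Inhba UMIs, under 10 Col2a1 UMIs and under 0.1% of UMIs from Acta2, with fewer than 2 of Barx2, Dkk2, Ret and Nos2 detected. A UMI is a molecular tag, so a count stands for 1 captured molecule. These limits selected 490 of 21148 cells that passed the UMI, gene and mitochondrial filters.

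The 490 cells, called Col15a1-positive fibroblasts below, came from 3 libraries, 1 for each group. The antibody library held 22 of them, from Matrigel implants with recombinant human BMP2 in mice given an activin A neutralizing antibody systemically. The IgG library held 69, from the same BMP2 implants in mice given pre-immune control IgG. The Matrigel library held 399, from implants of Matrigel alone, so all groups carried the gel. Whole masses were minced and dissociated with no sort by cell type stated. The sources used here do not give the age, sex or number of mice behind a library. Each group is a single library, so nothing was tested and every difference is between these libraries. All 95% intervals in parentheses cover counting error only.

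Col15a1 encodes collagen XV, a chain of the zone between basement membranes and the fibrillar matrix. In mouse tissues, fibroblasts with Col15a1 and fibroblasts with Pi16 are described as general types found in many organs, the second often in the adventitia of vessels. Inhba encodes the subunit that pairs to form activin A, a ligand of the TGF-beta family. BMP2 induces cartilage and then bone outside the skeleton, and Col2a1, Acan and Ibsp are genes of those lineages. Col15a1 lies on chromosome 4 of the mm10 build, from position 47208161 to 47313167 on the plus strand.

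The libraries held 6113, 6065 and 9249 barcodes with 38163880, 46317250 and 44252421 UMIs in the antibody, IgG and Matrigel masses, in that order. After the filters, 5967, 5958 and 9223 cells remained, of which 650, 1556 and 2162 were collagen-positive. The Col15a1-positive fibroblasts had a median of 21121 UMIs in the antibody masses, 13963 with IgG and 9213 with Matrigel alone. Their summed UMIs were 421218, 1035522 and 4008356 in the same order, so levels in the antibody library rested on the fewest molecules and cells. Between pairs of libraries 7 to 19 barcodes were shared, and 0 to 2 of these involved a Col15a1-positive fibroblast.

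Cells with Col15a1 were found in all 3 masses, and most of those in the BMP2 masses also carried Inhba. Of the collagen-positive cells, 142 had at least 2 Col15a1 UMIs in the antibody library, 311 with IgG and 591 with Matrigel alone. As shares these were 21.8% (18.7 to 25.2), 19.99% (18.0 to 22.1) and 27.3% (25.5 to 29.3). Among the Col15a1 cells with under 3 Pi16 UMIs, the Inhba limit removed 87 of 112 with the antibody, 189 of 274 with IgG and 15 of 478 with Matrigel alone. The Col15a1-positive fibroblasts then made up 3.38% (2.13 to 5.08) of collagen-positive cells in the antibody mass, 4.43% (3.47 to 5.58) with IgG and 18.5% (16.8 to 20.2) with Matrigel alone. Without the Inhba limit the shares were 8.31%, 8.997% and 18.7%. The antibody and IgG intervals overlapped, and both lay below that of the Matrigel library. Cells of the BMP2 libraries were deeper. With every cell thinned to 5000 UMIs before the rule was applied, the shares were 1.93%, 3.31% and 16.2%.

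**Figure D1:**
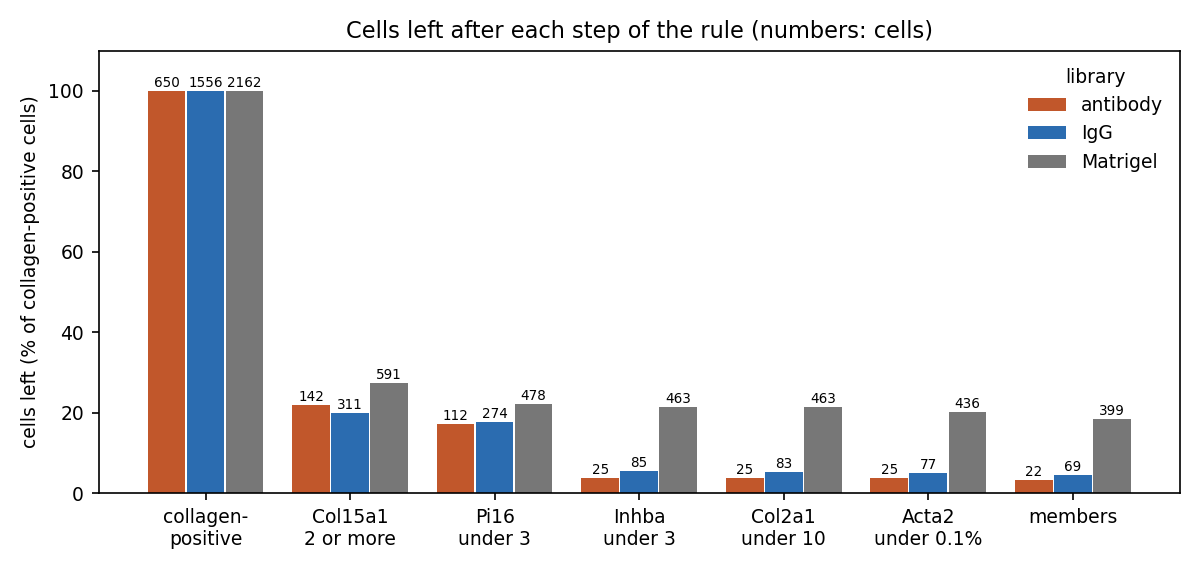
Cells left after each step of the rule, as a percentage of collagen-positive cells (y axis), for the antibody, IgG and Matrigel libraries, with the number of cells above each bar. The bars are close at the Col15a1 step and part at the Inhba step, where 25, 85 and 463 cells are left.

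Most Col15a1-positive fibroblasts of the Matrigel library carried most of the markers proposed with Col15a1, and a smaller share did in the BMP2 libraries. These markers were chosen with earlier results of these data known. Most of the selected cells also came from the Matrigel library, so their levels are a description and do not test the label. Podn encodes podocan, a small leucine-rich proteoglycan, Apod a lipid-binding lipocalin, Cxcl12 the chemokine that holds blood-forming cells in their niches, and Sfrp1 a secreted Wnt inhibitor. Levels are given as CPM, the UMIs of a gene summed over a group of cells relative to all UMIs of those cells. Podn stood at 35.6 CPM in antibody, 100.4 CPM in IgG and 257 CPM in Matrigel Col15a1-positive fibroblasts. Cxcl12 stood at 161, 323 and 818 CPM in the same order, and Sfrp1 at 252, 841 and 1445 CPM. All 3 markers were thus lowest with the antibody and highest with Matrigel alone. Apod showed no such order, at 442 CPM (380 to 510) in the antibody library, 399 CPM (361 to 439) with IgG and 384 CPM (365 to 404) with Matrigel alone. In the antibody library, however, 1 cell held 54.3% of the Apod UMIs.

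Set beside Pi16-high cells, which are collagen-positive cells with at least 3 Pi16 UMIs, under 3 Inhba UMIs and under 10 Col2a1 UMIs, Podn and Cxcl12 were lower in the Col15a1-positive fibroblasts of the BMP2 masses. There were 172 Pi16-high cells in the antibody library, 117 with IgG and 886 with Matrigel alone. With Matrigel alone, Cxcl12 was at 818 CPM in the Col15a1-positive fibroblasts against 176 CPM in Pi16-high cells, Podn at 257 against 60.6 CPM and Sfrp1 at 1445 against 207 CPM. In the IgG library Cxcl12 was at 323 CPM in the Col15a1-positive fibroblasts against 535 CPM in Pi16-high cells, and Podn at 100.4 against 157 CPM. In the antibody library Cxcl12 was at 161 against 316 CPM, Podn at 35.6 against 62.5 CPM and Sfrp1 at 252 against 209 CPM. Sfrp1 was at 841 against 616 CPM in the IgG library, so it stood higher in the Col15a1-positive fibroblasts in every library. So did Apod, at 442, 399 and 384 CPM against 152, 250 and 120 CPM in Pi16-high cells of the antibody, IgG and Matrigel libraries. Of the Col15a1-positive fibroblasts, 31.8% with the antibody, 46.4% with IgG and 70.9% with Matrigel alone had at least 3 of the 4 markers. This was so although those of the antibody library were the deepest.

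**Figure D2:**
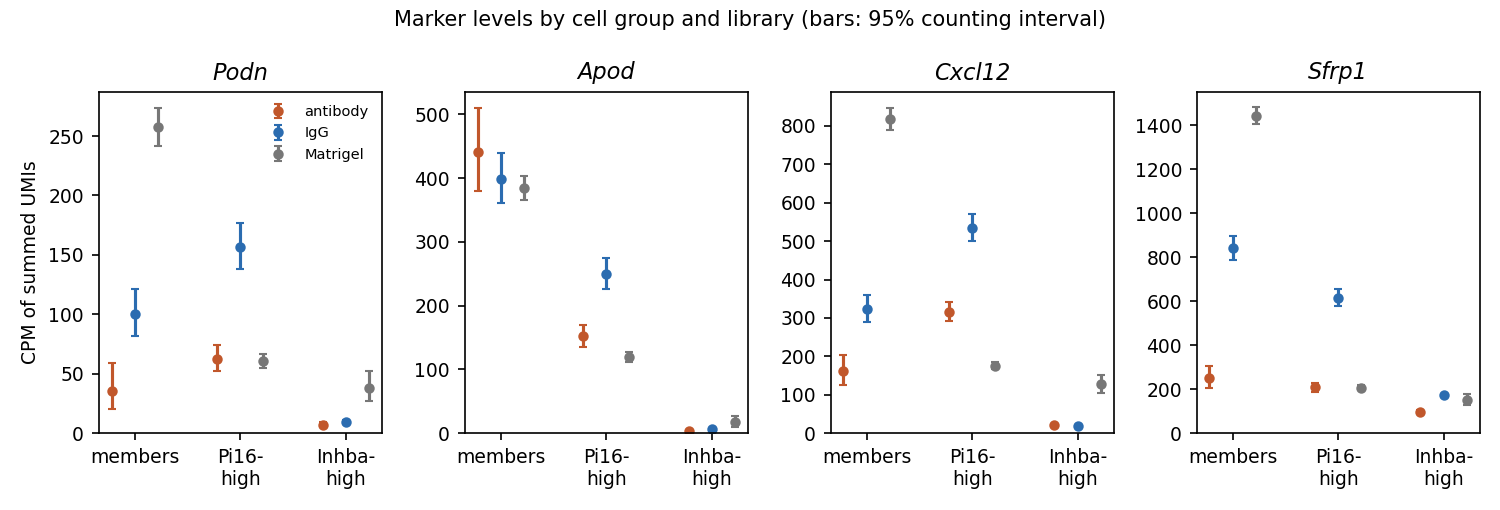
CPM of summed UMIs (y axes) of Podn, Apod, Cxcl12 and Sfrp1 in the Col15a1-positive fibroblasts (members), Pi16-high cells and Inhba-high cells of the antibody, IgG and Matrigel libraries, with 95% counting intervals. Cxcl12 in the members is at 161, 323 and 818 CPM, whereas in Pi16-high cells it is at 316, 535 and 176 CPM.

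Several defining transcripts of cells of the vessel wall were at or near 0, while others of the same lists were detected. The rule's Acta2 limit also acts on mural cells. Among the 12 mural cell genes examined, Higd1b and Myh11 had no UMI in any library, and Rgs5, a pericyte regulator of G-protein signalling, was found in 1 of 22, 1 of 69 and 6 of 399 cells of the antibody, IgG and Matrigel libraries. The summed level of the mural list was nevertheless 1417, 1285 and 664 CPM. Rgs4 was at 33.2, 87.9 and 86.1 CPM, from 5, 16 and 122 cells, and Cspg4, the pericyte proteoglycan NG2, at 16.6, 26.1 and 15.2 CPM. Of 8 measured mural genes, 5 were called higher and 2 lower in the IgG against the Matrigel library, and of 7 measured, 1 higher and 4 lower in the antibody against the IgG library. All measured genes gave 8.49% higher and 21.5% lower in the first comparison, and 8.85% and 25.4% in the second. Most of the summed level came from Ndufa4l2, a hypoxia-induced mitochondrial gene, at 1175, 927 and 489 CPM, and Cox4i2, a cytochrome oxidase subunit, at 159, 193 and 34.2 CPM. Of 12 endothelial genes, Cdh5 and Emcn had no UMI in any library, Pecam1 was found in 0, 0 and 3 cells, and the summed level was 45.1, 55.0 and 40.2 CPM. Among cells thinned to 3000 UMIs, Pecam1 was found in 0 of 19 antibody and 0 of 67 IgG cells, which by 3 counts allows a share of cells with a UMI of up to 15.8% and 4.48%. Macrophage-like cells, which should lack Col15a1, had a Col15a1 UMI in 0.168%, 0.752% and 0.613% of cells at median depths of 4578.5, 3334 and 2935 UMIs.

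The Col15a1 limit cut through a gradient of Cxcl12 and Sfrp1 in the Matrigel library, while no marker rose steadily in the BMP2 libraries. These values follow from the rule and are a description. In the Matrigel library, cells that met every other limit with 0, 1, 2 and 3 or more Col15a1 UMIs had Cxcl12 at 273, 454, 602 and 860 CPM. Sfrp1 in the same cells was at 491, 758, 1260 and 1481 CPM. Those with 1 UMI, just outside the limit, had a median of 7116 UMIs in all, and the 77 cells with 2, just inside, a median of 8129. Podn in the Matrigel library was at 287 CPM with 2 Col15a1 UMIs and 252 CPM with 3 or more. In the IgG library Apod was at 128 CPM with 1 Col15a1 UMI, 488 CPM with 2 and 354 CPM with 3 or more. In the antibody library 13 cells had 1 UMI and 5 cells had 2. Cxcl12 was at 254 CPM in the first and 91.2 CPM (39.4 to 180) in the second. It was at 180 CPM in the 17 cells with 3 or more.

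Several abundant genes of the Col15a1-positive fibroblasts, chosen from the lists after their values were seen, lay close together in the 3 masses. Sparc, a collagen-binding glycoprotein, was at 15617, 14336 and 13546 CPM in the antibody, IgG and Matrigel libraries. Fibronectin (Fn1) was at 8784, 8228 and 5971 CPM and Hspg2, the basement membrane proteoglycan perlecan, at 496, 457 and 450 CPM. Hspg2 was detected in 21 of 22, 67 of 69 and 375 of 399 cells. Decorin (Dcn) was at 3001, 2700 and 3391 CPM, and Ly6a, which encodes the surface antigen Sca-1, at 1562, 1387 and 1453 CPM. None of these differed by 1.5-fold in either comparison.

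Compared with Pi16-high cells, the Col15a1-positive fibroblasts were higher in Tnc, Runx1 and Snai1 and lower in Dpp4, Cd55 and Igfbp5 in all 3 masses. Pi16 was part of the rule, so these differences are described without a test. A gene was counted only where the ratio was at least 1.5 in the same direction in all 3 libraries, with at least 10 UMIs in 1 of the 2 groups in each. Of 9438 genes measured, 348 (3.69%) were higher and 400 (4.24%) were lower. Tenascin C (Tnc), a glycoprotein of healing tissue, was at 1555, 1486 and 1041 CPM in the Col15a1-positive fibroblasts against 15.3, 182 and 28.0 CPM in Pi16-high cells of the antibody, IgG and Matrigel libraries. The transcription factor Runx1 was at 245, 333 and 351 CPM against 31.5, 95.2 and 41.0 CPM. Snai1, which encodes a repressor of epithelial genes, was at 147, 201 and 136 CPM against 18.1, 42.1 and 16.3 CPM. Thrombospondin 1 (Thbs1), the secreted TGFBI protein gene (Tgfbi), the myofibroblast surface gene Lrrc15 and pleiotrophin (Ptn) were higher in the same way. In the antibody library 66.7% of the Thbs1 UMIs came from 1 cell.

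On the other side stood Dpp4 and Cd55 among others. Dpp4, a cell-surface peptidase, was at 35.6, 10.6 and 28.9 CPM in the Col15a1-positive fibroblasts against 429, 178 and 461 CPM in Pi16-high cells. The complement regulator Cd55 was at 109, 21.2 and 28.2 CPM against 478, 254 and 373 CPM. Igfbp5, which binds insulin-like growth factors, was at 21.4, 98.5 and 172 CPM against 2295, 821 and 2933 CPM. The scavenger receptor gene Scara5, the plasminogen-binding tetranectin gene Clec3b, the phospholipase gene Pla1a, Tmem100 and Galnt16 completed the 8 genes named by rule.

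Compared with Inhba-high cells, which are collagen-positive cells with at least 3 Inhba and under 10 Col2a1 UMIs, the Col15a1-positive fibroblasts were higher in C3, C1s1, Lpl and Eln in all 3 masses. There were 282 Inhba-high cells in the antibody library, 661 with IgG and 52 with Matrigel alone. Inhba and Acta2 were part of the rule, and Inhba-high cells had no Acta2 limit, so these differences are described without a test. Of 11135 genes measured, 477 (4.28%) were higher and 157 (1.41%) were lower in all 3 libraries. Complement C3 was at 525, 695 and 1005 CPM against 85.1, 36.2 and 27.2 CPM in Inhba-high cells, and the complement protease gene C1s1 at 228, 252 and 615 CPM against 18.2, 16.4 and 81.6 CPM. Lipoprotein lipase (Lpl) was at 211, 320 and 910 CPM against 13.04, 20.3 and 102 CPM. Elastin (Eln) was at 306, 1452 and 2966 CPM against 6.10, 7.30 and 1099 CPM, with 71.3% of its UMIs in the antibody library from 1 cell. Lower in the Col15a1-positive fibroblasts were the phosphate regulator Enpp1, the prostaglandin enzyme Ptgs2, the contractile genes Tpm2 and Tagln, tenascin N (Tnn), Pdgfc, Pappa and the fibronectin receptor subunit Itga5. Enpp1 was at 16.6, 21.2 and 16.0 CPM against 169, 129 and 245 CPM. How far the Acta2 limit bears on the contractile genes Tpm2 and Tagln was not tested.

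**Figure D3:**
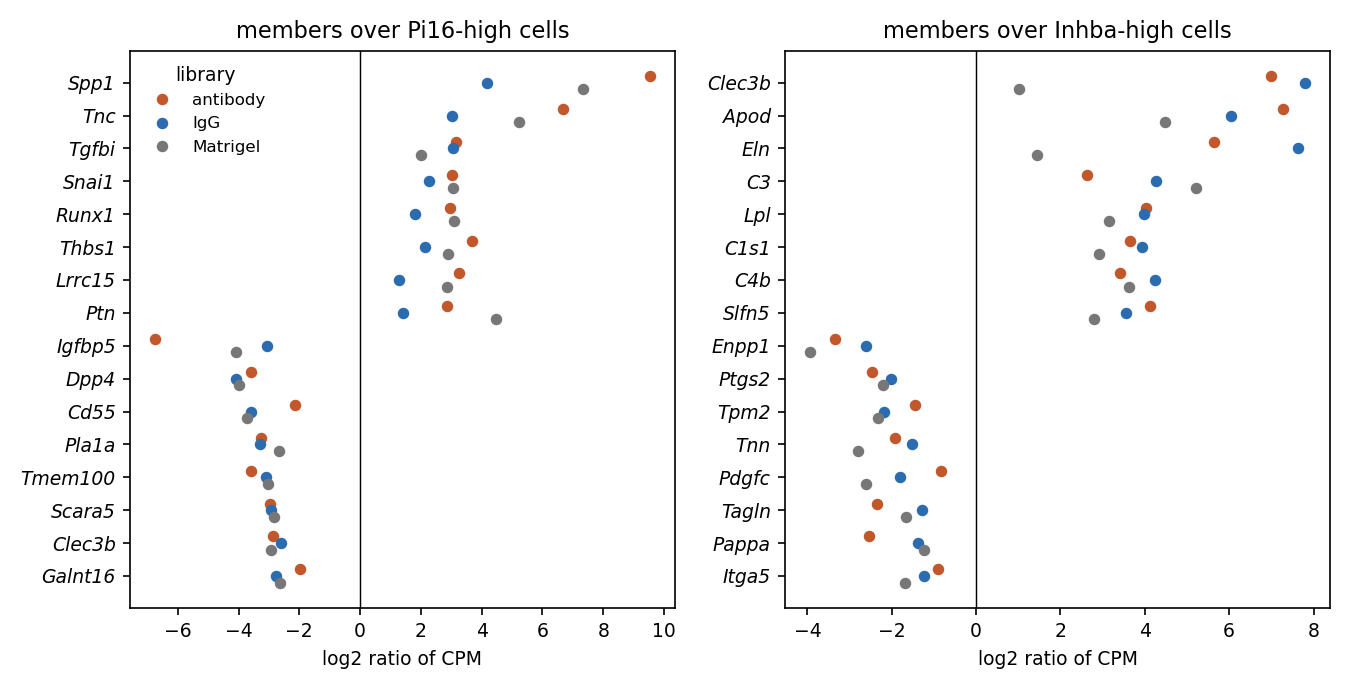
Log2 ratio of CPM (x axes) of the Col15a1-positive fibroblasts (members) over Pi16-high cells, left, and over Inhba-high cells, right, for the 8 highest and 8 lowest genes named by rule, with a point for each library. All 3 libraries lie on the same side of 0 for each gene, as the rule required.

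BMP2 implants were compared with the gel alone to see how the Col15a1-positive fibroblasts differed where cartilage and bone are induced. A gene was called at a ratio of 1.5 or more and 10 or more UMIs in either library. Of 11636 genes measured in the IgG against the Matrigel library, 988 (8.49%) were called higher and 2507 (21.5%) lower. Genes of cartilage and bone had the highest ratios, and Dlk1, Ace and Lmo2 the lowest. Of the 24 genes named by rule, 22 stayed past 1.5-fold in the same direction under all 12 other settings, the exceptions being Slpi and Fabp4.

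Dlk1, which encodes an inhibitor of fat cell differentiation, was near 0 in the IgG library. It stood at 1.93 CPM, from 2 of 69 cells, in the IgG library and at 286 CPM, from 142 of 399 cells, in the Matrigel library. That was 148-fold lower (40.9 to 1220). Among Inhba-high cells the IgG to Matrigel ratio was 0.0105 and among Pi16-high cells 0.354. The transcription factor genes Lmo2 and Meox1 were at 5.79 and 59.9 CPM in the IgG library against 69.9 and 298 CPM in the Matrigel library. Ace, which encodes angiotensin-converting enzyme, was at 13.5 against 163 CPM, 12.1-fold lower (7.15 to 22.2). Tril, a helper of Toll-like receptors, was at 22.2 against 176 CPM, and the fatty acid carrier Fabp4 at 67.6 against 300 CPM. The chemokine gene Cxcl14 was at 144 against 653 CPM, 4.54-fold lower (3.85 to 5.39), while in Pi16-high cells it was at 506 CPM with IgG against 168 CPM with Matrigel alone.

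The markers differed in the opposite direction in Pi16-high cells, a contrast that was not tested. Cxcl12 in the Col15a1-positive fibroblasts was 2.54-fold lower (2.27 to 2.85) in the IgG than in the Matrigel library, Podn 2.56-fold lower (2.09 to 3.17) and Sfrp1 1.72-fold lower (1.60 to 1.85). In Pi16-high cells the same comparison gave ratios of 3.05 for Cxcl12, 2.59 for Podn and 2.97 for Sfrp1. The niche list, which holds cytokine and transcription factor genes of perivascular stroma, had 2 of 13 measured genes called higher and 5 lower, beside 8.49% and 21.5% of all measured genes. Those lower included Csf1, the macrophage growth factor, at 244 against 535 CPM, and Ebf2 and Ebf3. Ebf1 was at 414 against 576 CPM and was not called.

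Many genes of energy metabolism were higher. Of 19 measured genes of hypoxia and glycolysis, 14 were called higher in the IgG than in the Matrigel library and 0 lower, with a median log2 ratio of 0.79 against -0.05 over all measured genes. Pgk1, a glycolytic kinase, was at 1262 against 687 CPM, and lactate dehydrogenase (Ldha) at 1789 against 1130 CPM. Vegfa, the endothelial growth factor, was at 270 against 145 CPM. In Pi16-high cells 8 of 19 genes were higher and 2 lower. All measured genes in Pi16-high cells gave 1432 higher and 2136 lower of 12151 in IgG against Matrigel. In antibody against IgG they gave 1264 higher and 1860 lower of 10406. List counts in Pi16-high cells, here and below, are to be read beside these.

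Chemokines, growth factors for vessels and early response genes held many lower members, beside 21.5% over all measured genes. Of 20 chemokine and cytokine genes, 11 were called lower and 3 higher in the IgG library, with Ccl11, Cxcl9 and Cxcl10 as the higher ones. The angiogenic ligands had 9 of 19 lower, among them Vegfc, Vegfd, Fgf2, Fgf10 and Hgf, and 3 higher, namely Vegfa, Pgf and Angpt1. Of 18 dissociation and immediate early genes, 14 were lower and 1 higher, with Fosb at 9.66 CPM in the IgG library against 92.8 CPM in the Matrigel library. Such genes respond to tissue handling, whose part in this difference was not tested. Pi16-high cells had 11 of these 18 lower.

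Macrophage transcripts were also lower in the IgG than in the Matrigel library, in all 12 listed genes, beside 21.5% of all measured genes. Their summed level was 166 CPM with the antibody, 312 CPM with IgG and 1448 CPM with Matrigel alone. Lyz2 was at 112 against 523 CPM and C1qa at 25.1 against 160 CPM with IgG and Matrigel libraries. In the antibody library C1qa, Adgre1 and Mrc1 had no UMI. Over 0.1% of UMIs from Ptprc, Lyz2 and C1qa were found in 0 of 22, 3 of 69 and 45 of 399 cells. With these cells left out, chemokines and cytokines had 11 of 19 measured genes lower and 4 higher. All measured genes then gave 2294 lower and 987 higher of 11238.

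Cartilage and bone genes were higher in the IgG than in the Matrigel library, some of them also outside the cells with the most such transcripts. The chondrogenic list had 11 of 12 measured genes called higher than with Matrigel alone and the osteogenic list 5 of 6, with median log2 ratios of 4.16 and 2.58. Aggrecan (Acan), the main cartilage proteoglycan, had 359 CPM with IgG and no UMI in the Matrigel library, at least 480-fold higher against a floor of 3 counts per library. Bone sialoprotein (Ibsp) had 200 CPM and none, at least 267-fold higher. The mineral-forming phosphatase Alpl was at 77.3 against 1.497 CPM and the osteoblast factor Sp7 at 63.7 against 2.99 CPM. Matrix genes of the same tissues, Fmod and Tnn, were at 846 against 77.1 CPM and 339 against 24.2 CPM.

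In 20 of the 69 IgG cells Acan, Ibsp, Col9a1 and Comp together gave at least 3 UMIs, as in 0 of 22 antibody cells and 0 of 399 Matrigel cells. This split was made after the values were seen, and it fixes the levels of those 4 genes, with Acan at 1101 CPM in the 20 cells against 7.12 CPM in the other 49. The cartilage regulator Sox9 was at 495 against 154 CPM. The other 49 cells still had Fmod at 450 CPM and Tnn at 113 CPM, against 77.1 and 24.2 CPM in the Matrigel library. The 20 cells were low in the markers of the fibroblasts, with Cxcl12 at 78.0 CPM (50.9 to 114) against 439 CPM (391 to 491), Apod at 162 against 511 CPM and Podn at 48.0 against 125 CPM. Cd34, a surface gene of fibroblast progenitors, was at 15 against 308 CPM, and the basement membrane chain Col4a1 at 2.999 against 181 CPM. Sfrp1 differed less, at 720 against 899 CPM. At 3000 UMIs per cell, Acan was detected in 20.9% of the IgG Col15a1-positive fibroblasts and in 2.11% of macrophage-like cells, which should lack it. Before thinning the shares were 27.5% and 3.82%, at median depths of 13963 and 3334 UMIs. Without the 20 cells, the chondrogenic list had 4 of 6 measured genes higher than with Matrigel alone and the osteogenic list 3 of 5. Hypoxia and glycolysis had 9 of 19. Each of these lists had 0 lower, beside 953 higher and 2591 lower of 11603 measured genes. Cxcl12, Podn and Sfrp1 at 439, 125 and 899 CPM in the other 49 cells were still below 818, 257 and 1445 CPM in the Matrigel library.

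**Figure D4:**
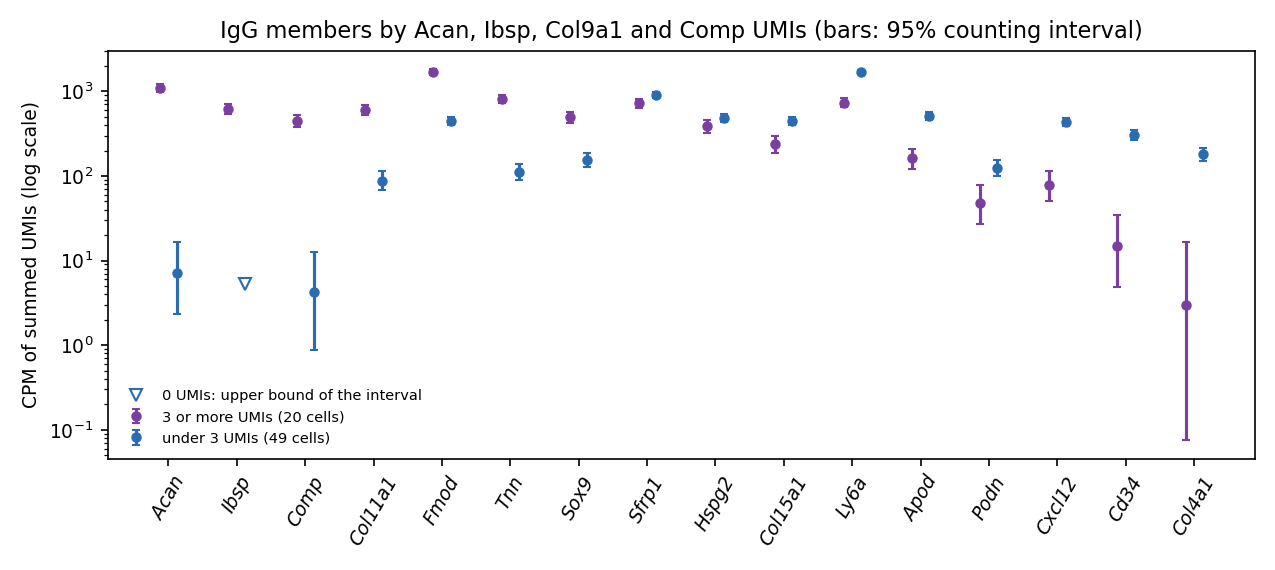
CPM of summed UMIs (y axis, log scale) in the 20 IgG Col15a1-positive fibroblasts with at least 3 UMIs of Acan, Ibsp, Col9a1 and Comp and in the 49 with fewer, with 95% counting intervals. Cxcl12 is at 78.0 and 439 CPM and Apod at 162 and 511 CPM, while Sfrp1 and Hspg2 lie closer together.

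The antibody and IgG libraries were compared to see how neutralizing activin A bears on these cells, and the antibody side rested on 22 of them. Of 8788 genes measured in the antibody against the IgG library, 778 (8.85%) were called higher and 2229 (25.4%) lower. The summed UMIs were 421218 against 1035522. Gas6, Apoe and cartilage genes were among those lower, and Cd55 and other Pi16-type genes among those higher. Of the 24 genes named by rule, 12 stayed past 1.5-fold in the same direction under all 12 other settings.

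Gas6, which encodes the ligand of the TAM receptors that clear dead cells, was at 71.2 CPM in the antibody library, 798 CPM with IgG and 786 CPM in the Matrigel library. It was found in 12 of 22, 51 of 69 and 319 of 399 cells, and no antibody cell held over 20% of its UMIs. The antibody level was 11.2-fold lower (7.79 to 16.7) than the IgG level. Pi16-high cells had Gas6 at 260 CPM in the antibody library against 773 CPM in the IgG library. Apoe, the lipid carrier, was at 178 CPM in the antibody library against 1422 CPM in the IgG library, 7.98-fold lower (6.33 to 10.2). Its neighbour in the genome, Apoc1, was at 4.75 against 158 CPM. Igfbp3, which binds insulin-like growth factors, was at 33.2 against 276 CPM and Igf1 itself at 47.5 against 230 CPM. Saa3, an acute-phase gene, was at 9.50 against 237 CPM, from 3 of 22 and 12 of 69 cells.

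Cartilage matrix transcripts were at or near 0 in the antibody cells. Ibsp and Comp had no UMI, at least 28.1-fold and 20.6-fold below 200 and 147 CPM in the IgG library, and Acan had 4.75 CPM against 359 CPM. Of 11 measured chondrogenic genes 9 were called lower and 0 higher. Without the 20 IgG cells named above the count was 3 lower and 2 higher of 5, beside 1837 and 720 of 7660 measured genes. Ibsp then had no UMI in either library. Fmod was at 245 CPM in the antibody library against 846 CPM in the IgG library. Spp1, osteopontin, ran the other way at 3898 against 479 CPM, a ratio of 8.14 (7.36 to 9.02). It came from 8 of 22 cells, of which the top 3 held 93.8% of 1642 UMIs. When the rule was applied to cells thinned to 5000 UMIs, which left 11 antibody cells, Spp1 was lower instead, with a log2 ratio of -0.55.

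Genes of Pi16-type progenitors were higher in the antibody than in the IgG cells in 8 of 17 measured and lower in 4, beside 8.85% and 25.4% of all measured genes. Cd55 was at 109 against 21.2 CPM, a ratio of 5.14 (3.03 to 8.97), from 9 of 22 and 12 of 69 cells, and Dpp4 at 35.6 against 10.6 CPM. Osr1, a transcription factor gene of connective tissue progenitors, was at 102 against 22.2 CPM, from 11 of 22 and 14 of 69 cells. Antxr2, which encodes an anthrax toxin receptor that binds matrix, was at 76.0 against 16.4 CPM. Cd55 and Antxr2 each stayed past 1.5-fold in 11 of 12 other settings, with a lowest log2 ratio of 0.37. In Pi16-high cells 12 of 18 genes of the list were higher and 0 lower in the same comparison. Without the 20 IgG cells the count in the Col15a1-positive fibroblasts was 4 higher and 4 lower of 17, beside 720 and 1837 of 7660 measured genes. With the rule applied to cells thinned to 5000 UMIs it was 4 higher and 4 lower of 18, with a median log2 ratio of -0.03. All measured genes then gave 871 higher and 2253 lower of 8072.

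Targets of BMP and of SMAD2/3 and cell cycle genes held more lower than higher members in the antibody cells. Of 9 measured targets of BMP and SMAD1/5, 6 were called lower and 1 higher. Id1 was at 47.5 CPM in the antibody library against 130 CPM with IgG, and Smad7 at 90.2 against 173 CPM. The median log2 ratio of this list was -1.04, and it stayed past 1.5-fold in the same direction in 14 of 15 other settings. With no limit on Inhba it was 0.0035. Of 15 targets of SMAD2/3, the branch that activin uses, 9 were lower and 1 higher, beside 25.4% and 8.85% of all measured genes. With the rule applied to cells thinned to 5000 UMIs, 3 of the 15 were lower and 4 higher, beside 2253 and 871 of 8072 measured genes. Pmepa1, a feedback gene of that branch, was at 463 against 737 CPM and Ltbp2, a latent TGF-beta binding protein gene, at 496 against 988 CPM. Proliferation genes had 20 of 22 lower, and Pi16-high cells 22 of 22. Top2a was at 11.9 CPM, from 4 of 22 cells, against 137 CPM, from 14 of 69 cells. With the rule applied to thinned cells, however, 8 of 22 proliferation genes were higher and 5 lower.

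Of 14 measured chemokine and cytokine genes, 10 were lower in the antibody cells and 0 higher, beside 25.4% and 8.85% of all measured genes. Angiogenic ligands showed no such lean, with 5 of 16 lower and 5 higher. Ccl7 was at 183 CPM in the antibody library against 425 CPM in the IgG library, and Cxcl14 at 35.6 against 144 CPM. Of the 4 markers, Cxcl12 was 2.00-fold lower (1.54 to 2.63), Podn 2.82-fold lower (1.63 to 5.22) and Sfrp1 3.34-fold lower (2.73 to 4.13), whereas Apod was at a ratio of 1.11 (0.926 to 1.32). Most Apod UMIs of the antibody cells came from 1 cell, however. Over 12 other settings the log2 ratio of Apod ran from -3.58 to 1.63, with the opposite sign in 5. In Pi16-high cells all 4 markers were lower in this comparison. Of 10 Wnt ligands and secreted inhibitors, 7 were lower and 1, Wnt2, higher. Cck, the gene of the peptide hormone cholecystokinin, had 152 CPM in the antibody cells and no UMI in the IgG cells, but 96.9% of its UMIs came from 1 cell, as did 91.3% of those of the interferon-induced gene Ifit3b. Among 16 interferon-stimulated genes 5 were higher and 1 lower, beside 8.85% and 25.4% of all measured genes. Without the highest cell of each gene 1 was higher and 4 lower of 15, beside 464 higher and 2724 lower of 8151 measured genes. With the rule applied to thinned cells 0 were higher and 13 lower of 16, beside 871 and 2253 of 8072 measured genes.

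**Figure D5:**
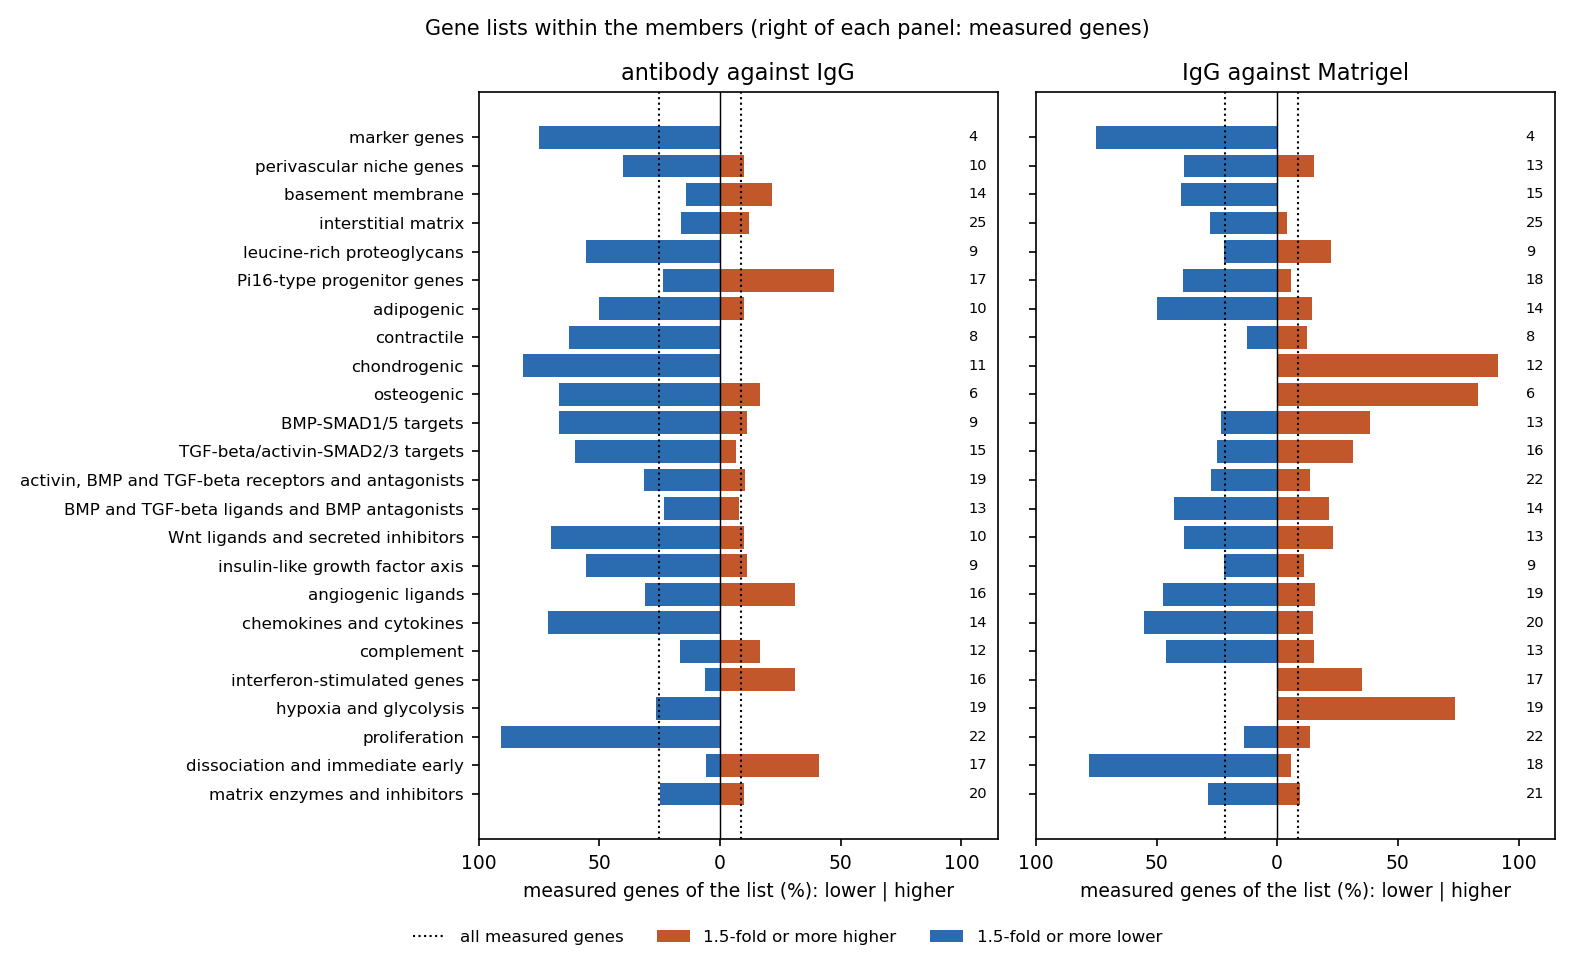
Percentage of the measured genes of each list (x axes) that were called lower, to the left, or higher, to the right, in the Col15a1-positive fibroblasts for antibody against IgG and for IgG against Matrigel, with the number of measured genes at the right and the share over all measured genes as dotted lines. Chondrogenic genes lean right with IgG against Matrigel (11 of 12 higher) and left with antibody against IgG (9 of 11 lower).

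Of 19 measured receptors and antagonists of activin, BMP and TGF-beta, 2 were called higher and 6 lower in the antibody against the IgG library, beside 8.85% and 25.4% of all measured genes. In the IgG against the Matrigel library 3 of 22 were higher and 6 lower, beside 8.49% and 21.5%. The ligands of BMP and TGF-beta with the BMP antagonists had 1 of 13 higher and 3 lower in the first comparison and 3 of 14 higher and 6 lower in the second. Follistatin-like 1 (Fstl1) was at 4038 CPM in the antibody, 2870 CPM with IgG and 3895 CPM in the Matrigel library, and the activin antagonist follistatin (Fst) at 126, 152 and 162 CPM. Timp1, an inhibitor of matrix metalloproteinases, was at 1883, 1352 and 643 CPM, and was called higher in the IgG than in the Matrigel library at a ratio of 2.10 (1.97 to 2.24). Its relative Timp3 was at 223, 781 and 535 CPM, 3.50-fold lower (2.82 to 4.38) in the antibody than in the IgG library. Mmp3, a stromelysin, was at 9.50, 15.5 and 131 CPM. Basement membrane genes had 3 of 14 higher and 2 lower in the antibody against the IgG library, and 0 of 15 higher and 6 lower in the IgG against the Matrigel library, where all measured genes gave 8.85% and 25.4%, then 8.49% and 21.5%. Col4a1 was at 26.1, 124 and 299 CPM in the antibody, IgG and Matrigel libraries.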

How the data were processed

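The authors deposited unnormalized UMI counts, whole numbers for each gene and barcode. Cell Ranger 3.0.2 and mm10 are listed in the submitters' processing notes. The gene annotation and how barcodes were called as cells were not given in the sources used here. Depth in the 3 libraries was 38163880 to 46317250 UMIs. The members and gene lists were chosen with earlier results of these data known. Cells were selected by the rule in the text. UMIs were summed per library over the cells of a group and scaled to CPM. Levels have exact Poisson intervals, ratios exact conditional binomial intervals and shares exact Clopper-Pearson intervals, at 95%. With 1 library per group no test was run. A call needed a ratio of 1.5 and 10 UMIs in 1 of the 2 sums. List medians used sums with 1 UMI added. Genes of the rule and mt- genes were left out of rankings and lists.

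Named were, in each comparison between libraries, the 12 highest and 12 lowest ratios at 50 CPM and 20 UMIs in the higher library. Against Pi16-high and Inhba-high cells they were the 8 highest and 8 lowest at 100 CPM, with up to 4 of the most abundant genes of each list. Genes under 10% of their level in another cell class, ribosomal protein genes, Xist, Y-linked genes and unnamed gene models were left out of these rankings. Other genes named were chosen after their values were seen. Of the listed genes, 3 were not matched in the files. Scrublet (scanpy 1.11.5) marked 4, 3 and 2 doublets in the antibody, IgG and Matrigel libraries by its automatic threshold, under 0.5% of cells. No cell was removed for this in the main results, and an alternative removed the highest scores at 0.8% per 1000 cells, 285, 284 and 681 cells, of which 2, 3 and 45 were members. The ratio, its interval and the call were tested on simulated data. Gene positions came from GENCODE on the same build. A gene named by the rule is not reported here.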

Additional observations from a re-analysis of the deposited data

Results flagged for a closer look

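For 8 gene ratios described here, the difference between libraries ran one way in the Col15a1-positive fibroblasts and the other way in Pi16-high cells. With 1 library per group the contrast between the cell groups was not tested. In antibody against IgG, Spp1 had a ratio of 8.14 in the Col15a1-positive fibroblasts and 0.200 in Pi16-high cells. The top 3 cells held 93.8% of the Spp1 UMIs of the antibody Col15a1-positive fibroblasts. Thbs4 had 7.45 and 0.348. In IgG against Matrigel, Matn4 had a ratio of 14.8 in the Col15a1-positive fibroblasts and 0.505 in Pi16-high cells. Levels in Pi16-high cells were low, with Spp1 at 5.25 against 26.2 CPM, Thbs4 at 11.5 against 32.9 CPM and Matn4 at 9.76 against 19.3 CPM. Mmp3 had 0.118 and 1.54, and Cxcl14 had 0.220 and 3.005. The markers Podn, Cxcl12 and Sfrp1 had 0.390, 0.394 and 0.582 in the Col15a1-positive fibroblasts and 2.59, 3.05 and 2.97 in Pi16-high cells.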

How the results depend on the processing

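No paired analysis was possible because each group has 1 library, and no replicate could be left out. Directions are antibody against IgG, then IgG against Matrigel, and the cause of the changes below was not tested. Of the counts and shares, 96 of 135 kept within their limits, as did 657 of 720 list medians and 522 of 672 named gene ratios. Shares of collagen-positive cells in the antibody, IgG and Matrigel libraries were 5.38%, 7.07% and 23.2% with at least 1 Col15a1 UMI, 1.54%, 1.99% and 12.3% with at least 4, and 1.93%, 3.31% and 16.2% with cells thinned to 5000 UMIs. With no limit on Inhba they were 8.31% and 8.997% in the antibody and IgG libraries, and with no Inhba UMI 3.15% in the IgG and 16.6% in the Matrigel library. Without cells over the immune limit the Matrigel share was 16.4%, and without the 20 cartilage-type cells the IgG share was 3.15%.

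Genes called higher in antibody against IgG numbered 1262 by the mean of single-cell CPM, 241 at 30 UMIs, 1929 at 1 UMI, 239 at 2-fold and 300 where the interval had to leave out 1. Genes lower numbered 1035 at 30 UMIs, 1178 at 2-fold and 722 by interval. For IgG against Matrigel, genes higher numbered 635 at 30 UMIs, 1855 at 1 UMI, 359 at 2-fold and 613 by interval, and genes lower 1279 at 2-fold and 1217 by interval. At 1 UMI, 40.9% and 40.6% of calls were higher, against 25.9% and 28.3% in the main results. Genes higher than in Pi16-high cells numbered 593 with no Inhba limit, 183 at 30 UMIs, 666 at 1 UMI and 173 at 2-fold, and genes lower 203 at 2-fold. Genes higher than in Inhba-high cells numbered 225 with no Inhba limit and 224 at 2-fold, and genes lower 68 with thinned cells, 44 with no Inhba limit and 46 at 2-fold.

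Log2 ratios of antibody against IgG that changed sign with thinned cells were those of Spp1 (-0.55), Ifit3b (-1.95), Abca8a (-2.59) and Top2a (0.89) and the medians of the proliferation (0.36) and contractile (0.0014) lists. The Wnt list had a median of 0.074 with at least 4 Col15a1 UMIs and 0.14 at 1 UMI, Mest 0.30 with at least 4 Col15a1 UMIs, and the BMP target list 0.0035 with no Inhba limit. Ibsp was at 0.74 without the 20 cartilage-type cells, where it had no UMI in either library and the value comes from the added UMI. In IgG against Matrigel, Slpi was at -0.67 with at least 4 Col15a1 UMIs and -0.88 without the 20 cells.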
